A study of Mus musculus with 24 samples.

Results

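Type I interferon-stimulated genes were followed across bile acid treatments of mouse CD8+ T cells. The 35 genes were a given list of symbols, drawn up with earlier results of these data known, and all 35 had a row among the 24537 genes of the count table. All 35 also passed the filter on low counts, which left 13044 genes for testing. The cells had been activated in vitro and were exposed to single bile acids in 8 groups of 3 RNA-seq libraries each. The dose was 50 µM for the unconjugated acids IsoAlloLCA, IsoLCA, DehydroLCA, UDCA and LCA, and 100 µM for TCA and TCDCA, both conjugated to taurine. The eighth group is labelled control, with nothing said in the labels of what it received in place of an acid. The series' design gives 24 h of exposure and the treatment protocol says overnight. The labels name no strain, sex or age of the mice and do not say whether the 3 libraries of a group came from separate cultures, so p-values measure the spread between libraries, which may be technical. All comparisons with control share the same 3 control libraries.

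Type I interferons bind a receptor made of Ifnar1 and Ifnar2, whose kinases Jak1 and Tyk2 phosphorylate transcription factors such as Stat2. Stat2 and Irf9 act in a complex that binds interferon-stimulated response elements in the promoters of antiviral genes, many of which also respond to signals from viral RNA and DNA sensors. In CD8+ T cells, interferon signalling at the time of activation is known to support expansion and effector function.

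Promoters were read from RefSeq (GRCm38.p6, 250 bases before to 50 after the gene's start), and 26 of the 35 genes were matched by symbol. The core of the response element was searched as GAAANNGAAA on both strands, counting overlapping matches. At least 1 promoter of the gene held it for 13 of these 26 genes (50.0%), against 1079 of the 27025 genes in the RefSeq promoter table (3.99%), and some genes have several promoters there. A match is a description of the letters and shows no binding. Several members lie next to each other: Ifit1, Ifit2 and Ifit3 on chromosome 19, Oas1a, Oas2 and Oas3 as well as Oasl1 and Oasl2 on chromosome 5, Mx1 and Mx2 as well as Parp9, Parp14 and Dtx3l on chromosome 16, and Rsad2 and Cmpk2 on chromosome 12. Sequences of 5 of the genes are given 5′ to 3′ along the gene's strand, with every match to GAAANNGAAA or its reverse complement in capitals: Isg15 (chr4:156200769-156201068, minus strand), Ifit1 (chr19:34640639-34640938, plus strand), Rsad2 (chr12:26456403-26456702, minus strand), Bst2 (chr8:71537423-71537722, minus strand) and Oasl1 (chr5:114922990-114923289, plus strand).
Isg15: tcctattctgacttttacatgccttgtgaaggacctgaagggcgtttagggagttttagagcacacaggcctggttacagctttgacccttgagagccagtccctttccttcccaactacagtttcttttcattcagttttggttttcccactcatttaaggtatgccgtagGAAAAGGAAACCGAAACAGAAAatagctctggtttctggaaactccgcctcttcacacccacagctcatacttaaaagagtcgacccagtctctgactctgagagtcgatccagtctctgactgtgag
Ifit1: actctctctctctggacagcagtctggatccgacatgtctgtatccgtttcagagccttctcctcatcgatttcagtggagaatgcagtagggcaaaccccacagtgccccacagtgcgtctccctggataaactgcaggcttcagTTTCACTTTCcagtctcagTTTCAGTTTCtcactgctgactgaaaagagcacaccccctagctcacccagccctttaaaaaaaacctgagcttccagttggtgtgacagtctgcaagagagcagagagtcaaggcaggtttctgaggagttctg
Rsad2: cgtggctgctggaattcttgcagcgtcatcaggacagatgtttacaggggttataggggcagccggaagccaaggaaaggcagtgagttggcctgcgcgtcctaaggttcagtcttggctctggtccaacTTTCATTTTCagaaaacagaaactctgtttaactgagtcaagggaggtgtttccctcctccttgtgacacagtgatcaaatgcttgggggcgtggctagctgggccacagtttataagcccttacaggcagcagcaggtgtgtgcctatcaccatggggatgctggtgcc
Bst2: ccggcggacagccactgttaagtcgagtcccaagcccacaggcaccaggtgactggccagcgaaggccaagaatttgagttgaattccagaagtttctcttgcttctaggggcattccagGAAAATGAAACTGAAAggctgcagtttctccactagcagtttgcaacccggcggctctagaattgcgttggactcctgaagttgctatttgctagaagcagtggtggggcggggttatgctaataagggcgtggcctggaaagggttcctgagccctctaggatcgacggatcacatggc
Oasl1: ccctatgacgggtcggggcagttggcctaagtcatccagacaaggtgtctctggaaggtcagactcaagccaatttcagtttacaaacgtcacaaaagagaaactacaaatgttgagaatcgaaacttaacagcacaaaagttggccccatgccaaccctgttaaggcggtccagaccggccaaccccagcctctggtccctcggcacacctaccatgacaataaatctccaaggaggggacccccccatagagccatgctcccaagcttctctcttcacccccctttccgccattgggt
Isg15 held 3 overlapping matches, which start 78, 72 and 66 bases before the gene's start, and Ifit1 held 2, Rsad2 1 and Bst2 2 overlapping ones. Oasl1, the member with the smallest adjusted p after LCA, held 0 in this window, and Bst2, which held 2, passed the test in 0 of 13 comparisons.

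Each library held 25998051 to 41024340.5 counts in genes (median 32852325). T cell marker genes summed to between 3380 and 4070 CPM, counts scaled to a common library size, in every library, and Cd8a and Cd8b1 to between 911 and 1180 CPM, while Cd4 had at most 1.16 CPM. The 7 macrophage and monocyte markers summed to 0.125 to 1.19 CPM and the 4 B cell markers to 4.08 to 6.38 CPM. Siglech, a defining marker of plasmacytoid dendritic cells, which are strong makers of type I interferon, had 0 counts in every library. The rest of that list summed to 115 to 193 CPM, of which Ptprs alone held 107 to 180 CPM. Natural killer cell markers summed to 14.9 to 36.5 CPM, of which Eomes held 13.7 to 35.7 CPM. The interferon genes of the list were at the limit of detection: the highest count in any library was 2 for Ifna1, 1 for Ifna2, 2 for Ifna4 and 1 for Ifnb1. In bulk RNA, fewer cells of a type and less RNA per cell cannot be told apart.

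In control cells the genes spanned a wide range of levels. Scaled per length, Bst2, which tethers virus particles to the cell surface, was highest at 98.8 CPM per kb, followed by Ifi35 (38.3 CPM per kb), Dtx3l (36.1 CPM per kb) and Parp9 (31.4 CPM per kb). Lowest were Ifi44 (0.109 CPM per kb), Oas2 (0.207 CPM per kb) and Mx2 (0.499 CPM per kb). Isg15 stood at 8.07 CPM per kb, Irf7 at 5.45 CPM per kb and Oasl1 at 0.729 CPM per kb. The summed level of the 35 genes, with no correction for length, was 1533 to 1577 CPM in the LCA libraries, above the 3 control libraries at 1279, 1401 and 1433 CPM. It was 1169 to 1191 CPM in the IsoAlloLCA libraries, all below the control libraries. The IsoLCA (1139 to 1256 CPM), UDCA (1174 to 1269 CPM) and TCDCA libraries (1228 to 1271 CPM) also all lay below them.

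**Figure D1:**
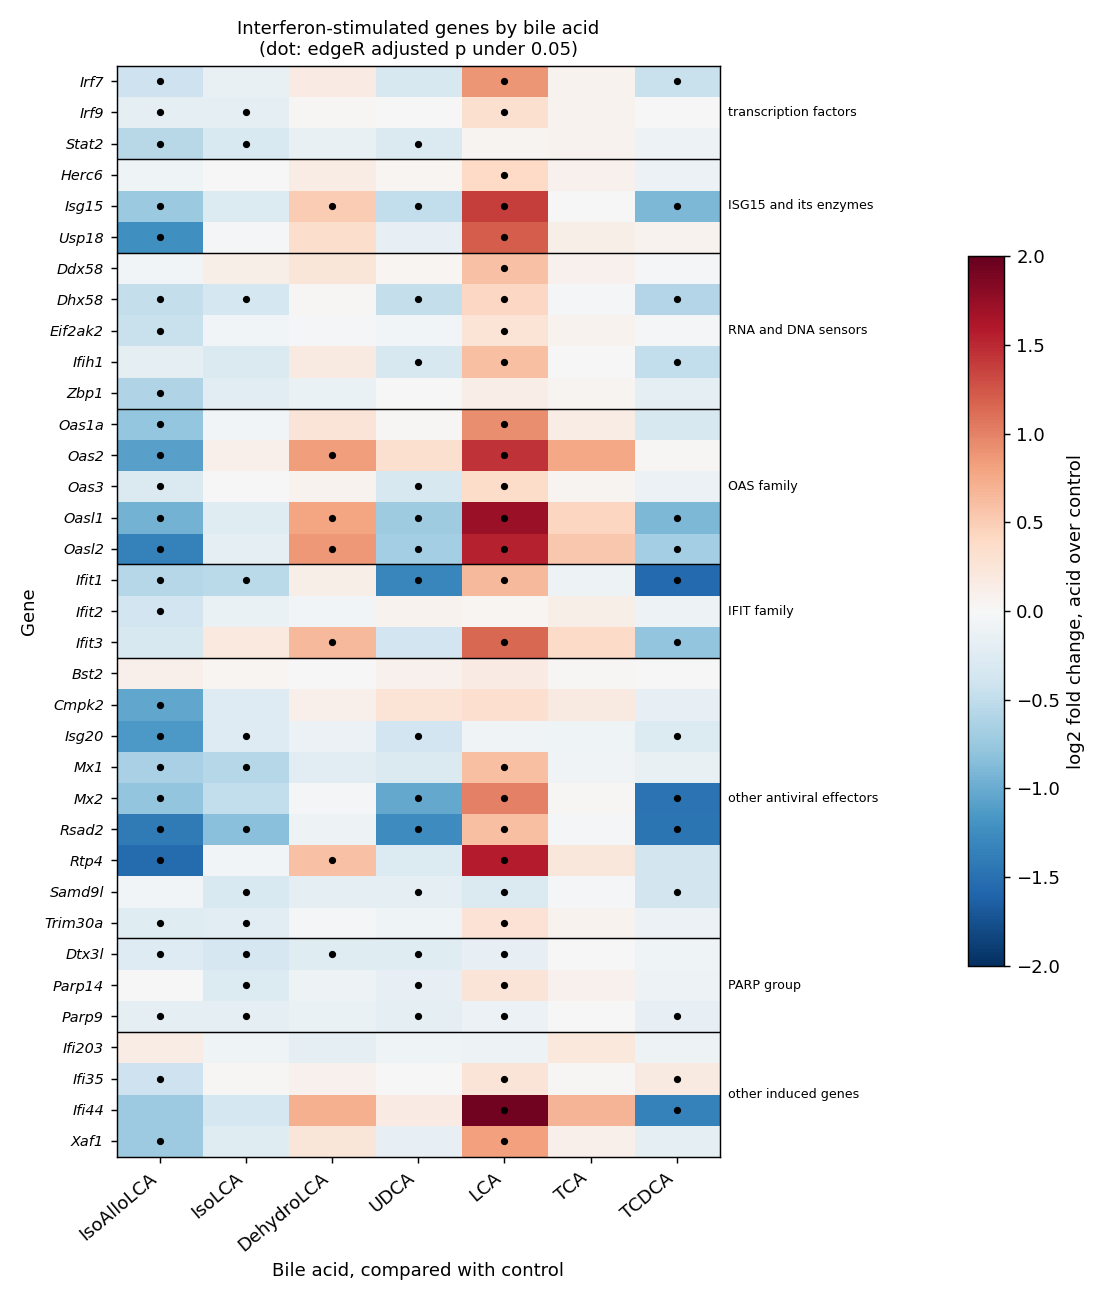
Log2 fold change of each of the 35 genes (rows, in groups by role) in each of the 7 acids against control (columns). A dot marks an edgeR adjusted p under 0.05, and the LCA column holds 25 higher calls while the IsoAlloLCA column holds 26 lower ones.

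LCA raised most of the genes. With a call defined as a Benjamini-Hochberg adjusted p under 0.05 in edgeR's quasi-likelihood test over all 13044 genes, 25 of the 35 rose, 3 fell and 7 did not pass, beside 17.7% of all tested genes called higher and 18.8% lower (36.5% either way). The median log2 fold change was 0.41, and 0.01 over all tested genes. All 28 called genes had no overlap between the LCA and the control libraries, and 9 changed more than 2-fold. The shares of all tested genes without overlap or beyond 2-fold were not computed, here or for the counts below. With 3 libraries per group, genes called by the test mostly lie apart, so counts without overlap add no support to the calls. Values after ± are standard errors for log2 fold changes and SD of 3 libraries for means in CPM. Positive log2 fold changes mean higher with the acid.

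Isg15, a ubiquitin-like protein that is attached to other proteins, had 16.5, 15.7 and 15.2 CPM in the LCA libraries, against 5.79, 7.71 and 4.70 CPM in the control libraries. Every LCA library lay above every control library, a log2 fold change of 1.39 ± 0.13 (edgeR adjusted p = 8.24e-09). The other enzymes of this system rose too: Usp18, which removes Isg15 from proteins and dampens receptor signalling, by 1.21 ± 0.14, and the ligase Herc6 by 0.39 ± 0.05. Oasl1, which in mouse holds back translation of Irf7, had 5.23, 4.90 and 5.02 CPM in the LCA libraries, against 1.61, 1.80 and 1.22 CPM in the control libraries. The groups were far apart (log2 fold change 1.72 ± 0.14, edgeR adjusted p = 6.95e-10). Its neighbour on chromosome 5, Oasl2, had 5.28, 5.75 and 6.44 CPM in the LCA libraries, against 2.20, 2.35 and 1.49 CPM in the control libraries. Again no libraries overlapped (log2 fold change 1.54 ± 0.14, edgeR adjusted p = 8.67e-09). The oligoadenylate synthetases, whose product activates RNase L, rose as well: Oas1a (0.93), Oas2 (1.45) and Oas3 (0.37), so that 5 of the 5 genes of this family passed. Rtp4, an interferon-induced regulator of antiviral signalling, had 12, 10.5 and 10.9 CPM in the LCA libraries, against 3.75, 4.24 and 3.26 CPM in the control libraries. The LCA libraries held about the same level as each other, all above control (log2 fold change 1.57 ± 0.15, edgeR adjusted p = 1.86e-08). Xaf1, a proapoptotic protein, had 20.2, 19.2 and 20.7 CPM in the LCA libraries, against 12.1, 12.3 and 9.67 CPM in the control libraries, likewise apart (log2 fold change 0.82 ± 0.08, edgeR adjusted p = 1.32e-08).

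Among transcription factors, Irf7 and Irf9 rose while Stat2 did not pass. Irf7, which amplifies interferon responses, had 18.9, 18.7 and 18.1 CPM in the LCA libraries, against 10.2, 11.6 and 8.40 CPM in the control libraries. The LCA libraries lay close together and above control (log2 fold change 0.89 ± 0.13, edgeR adjusted p = 7.37e-06). Irf9, the DNA-binding partner of Stat2, had 45.7, 46.7 and 46.1 CPM in the LCA libraries, against 38.8, 38.1 and 34.1 CPM in the control libraries (log2 fold change 0.32 ± 0.05, edgeR adjusted p = 4.12e-05). Stat2 had a log2 fold change of 0.06 ± 0.07, with a 95% interval from -0.08 to 0.20. Of the nucleic acid sensors 4 of 5 rose: Ifih1 (0.59), Ddx58 (0.58), Dhx58 (0.41) and Eif2ak2 (0.27), while Zbp1 was at 0.13 ± 0.07. In the IFIT family of RNA-binding proteins, Ifit1 (0.65) and Ifit3 (1.15) rose and Ifit2 was at 0.03 ± 0.09. The chromosome 16 neighbours Mx1 (0.60) and Mx2 (1.01) and the radical enzyme Rsad2 (0.61) rose, as did Ifi44 (1.94), Ifi35 (0.26), Trim30a (0.28) and Parp14 (0.25). Ifi44 was scarce, with 1.45, 1.21 and 0.999 CPM in the LCA libraries, against 0.31, 0.279 and 0.359 CPM in the control libraries.

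Against this direction, Dtx3l (-0.17) and Parp9 (-0.11), which form a complex that modifies histones and viral proteins, and the antiviral factor Samd9l (-0.28) fell. Parp9 and Dtx3l lie head to head on chromosome 16, their spans share 558 bases, and the strand setting of the counting is not given, so their counts may hold reads of each other. The 4 further genes that did not pass were Isg20 at -0.06 ± 0.08, Bst2 at 0.16 ± 0.06, Cmpk2 at 0.34 ± 0.14 and Ifi203 at -0.10 ± 0.09. Rsad2 lost its call without control replicate 1 (adjusted p = 0.0595) or control replicate 3 (adjusted p = 0.0621), and Parp9 did so without any of control replicate 1 (adjusted p = 0.0812), control replicate 2 (adjusted p = 0.132), LCA replicate 2 (adjusted p = 0.0743) or LCA replicate 3 (adjusted p = 0.164), all in edgeR. Natural killer cell markers summed to 22 to 23.9 CPM in LCA against 26.3 to 27.6 CPM in control libraries, and conventional dendritic cell markers to 2.14 to 2.41 CPM in LCA against 1.61 to 2.01 CPM in control libraries. B cell markers, mostly Cd79b, summed to 4.19 to 4.46 CPM in LCA against 5.88 to 6.38 CPM in control libraries, and the part of these shifts was not tested.

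**Figure D2:**
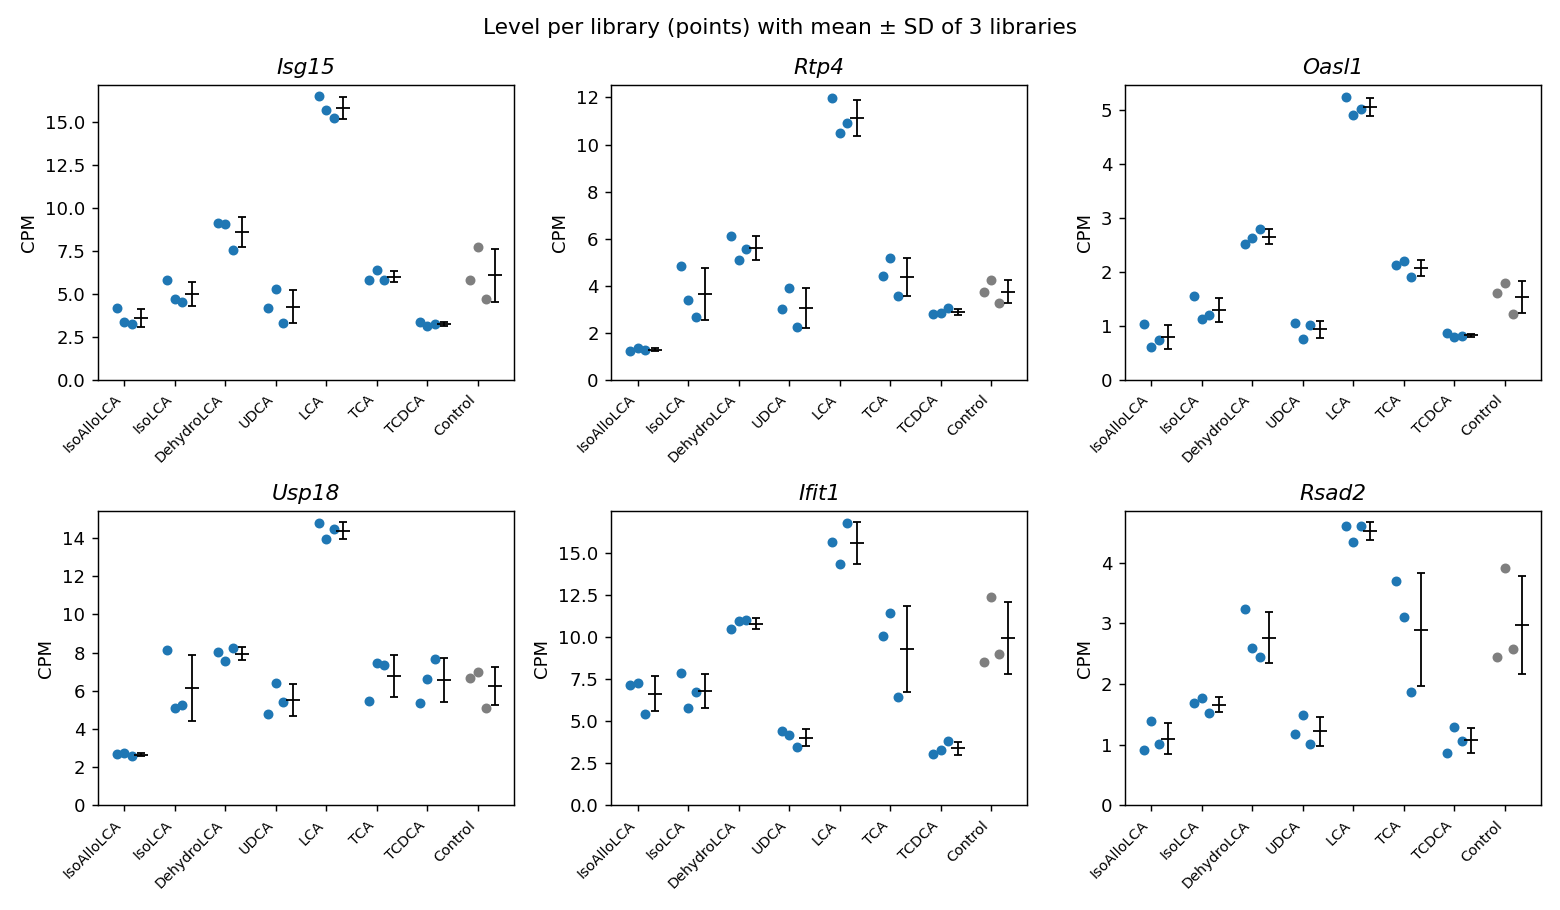
Level in CPM (vertical axes) of Isg15, Rtp4, Oasl1, Usp18, Ifit1 and Rsad2 in each library of the 8 groups (points), with the mean ± SD of 3 libraries as bars. The LCA libraries stand above the control libraries for Isg15 (15.2 to 16.5 CPM with LCA, 4.70 to 7.71 CPM in control).

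The fold changes were also set beside the genes' levels. Over the 12 genes with the lowest mean over all 24 libraries (0.15 to 3.15 CPM per kb), 12 rose with LCA, with a median log2 fold change of 1.08. Over the 11 in the middle, at 3.63 to 12 CPM per kb, 7 rose and 4 did not pass, with a median of 0.41. Over the 12 highest, at 14.4 to 103 CPM per kb, 6 rose, 3 fell and 3 did not pass, with a median of 0.21. Shares called and median changes of all tested genes at these levels were not computed. Across the 35 genes the Spearman correlation of mean level with log2 fold change was 0.655 for IsoAlloLCA, 0.195 for IsoLCA, -0.589 for DehydroLCA, 0.218 for UDCA, -0.819 for LCA, -0.403 for TCA and 0.558 for TCDCA. These are descriptions across genes, which share libraries and are not independent replicates, and levels and changes come from the same libraries. Of the 13 genes with the response element core in the promoter window, 10 rose with LCA, with a median of 0.58, and of the 13 without it 8 rose, with a median of 0.34.

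**Figure D3:**
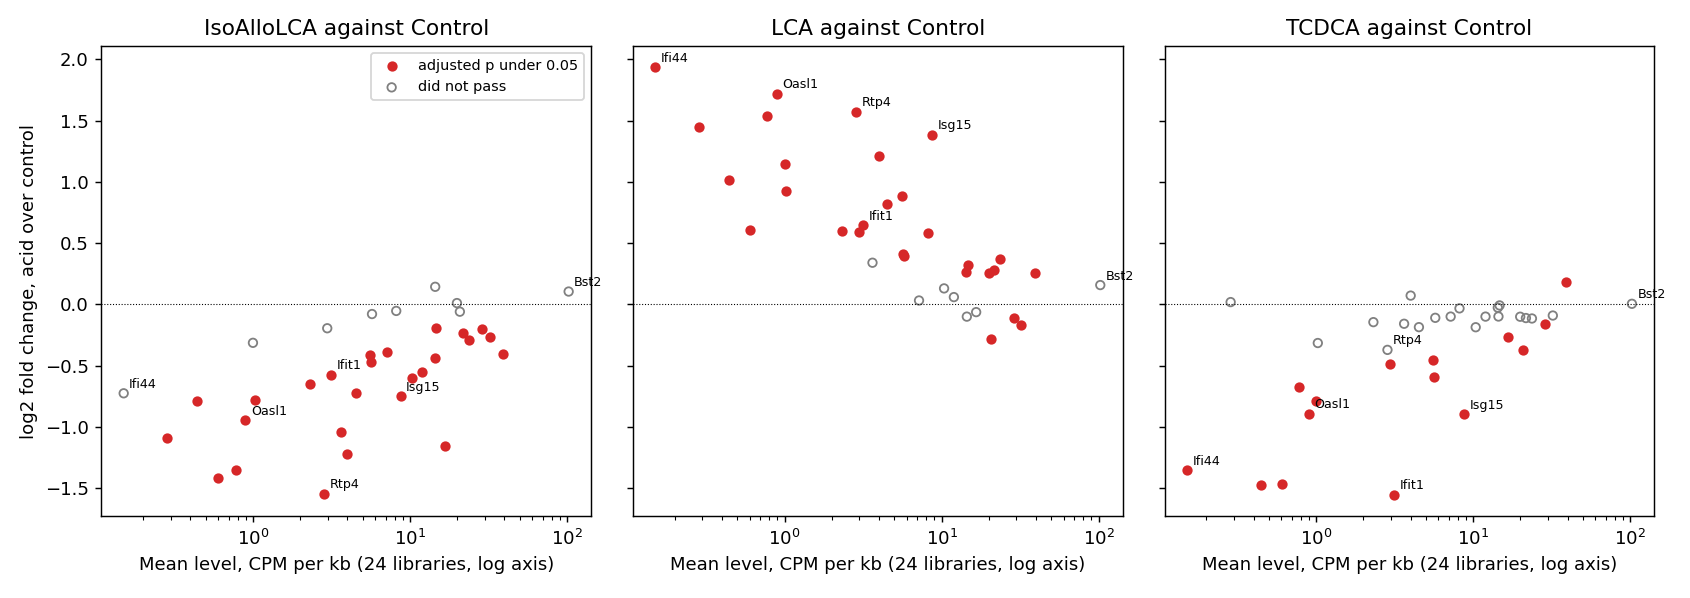
Log2 fold change of each gene (vertical) against its mean level in CPM per kb over 24 libraries (horizontal, log axis) for IsoAlloLCA, LCA and TCDCA against control. Filled points passed at an edgeR adjusted p under 0.05, and with LCA the genes at the low end rose most while Bst2 at the high end was at 0.16.

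IsoAlloLCA lowered most of the genes. Of the 35, 0 rose, 26 fell and 9 did not pass, beside 30.6% of all tested genes called higher and 27.8% lower, with a median log2 fold change of -0.47 against 0.03 over all tested genes. Calls in either direction were made for 58.4% of all tested genes, beside which 74.3% of the 35 were called. The 26 called genes had no overlap between groups, and 7 changed more than 2-fold.

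Isg20, an exonuclease that degrades viral RNA, had 10.4, 9.11 and 9.23 CPM in the IsoAlloLCA libraries, against 18.5, 23.5 and 22.2 CPM in the control libraries. Every IsoAlloLCA library lay below every control library (log2 fold change -1.15 ± 0.09, edgeR adjusted p = 1.33e-10). Rtp4 had 1.21, 1.36 and 1.27 CPM in the IsoAlloLCA libraries, against 3.75, 4.24 and 3.26 CPM in the control libraries, the largest fall of the 35 (log2 fold change -1.54 ± 0.22, edgeR adjusted p = 1.28e-06). Isg15 had 4.17, 3.33 and 3.24 CPM in the IsoAlloLCA libraries, against 5.79, 7.71 and 4.70 CPM in the control libraries, again without overlap (log2 fold change -0.75 ± 0.16, edgeR adjusted p = 0.000255), and Usp18 fell by 1.22 ± 0.18 on the log2 scale, while Herc6 was at -0.08 ± 0.05. The PKR gene Eif2ak2, whose product halts translation on double-stranded RNA, averaged 46.4 ± 2.94 CPM in IsoAlloLCA and 62.9 ± 4.75 CPM in control cells (SD, n = 3 each), a log2 fold change of -0.44 ± 0.05 (edgeR adjusted p = 5.19e-08). Zbp1, a sensor of Z-form nucleic acids, averaged 14.5 ± 0.655 CPM in IsoAlloLCA and 22.1 ± 0.298 CPM in control cells (log2 fold change -0.60 ± 0.08, edgeR adjusted p = 2.04e-07). Xaf1 averaged 6.87 ± 0.412 CPM in IsoAlloLCA and 11.4 ± 1.47 CPM in control cells (log2 fold change -0.72 ± 0.09, edgeR adjusted p = 2.17e-07).

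The 3 transcription factors fell. Stat2 had 35.4, 42.5 and 40.3 CPM in the IsoAlloLCA libraries, against 60.8, 59.7 and 53.1 CPM in the control libraries, with a clear gap between the groups (log2 fold change -0.55 ± 0.07, edgeR adjusted p = 3.27e-07). Irf7 was at -0.42 ± 0.14 (edgeR adjusted p = 0.0159) and Irf9 at -0.19 ± 0.06 (edgeR adjusted p = 0.00434). The 5 genes of the OAS family fell: Oas1a (-0.78), Oas2 (-1.09), Oas3 (-0.29), Oasl1 (-0.95) and Oasl2 (-1.35). So did Rsad2 and Cmpk2, neighbours on chromosome 12 that act on nucleotides, at -1.42 ± 0.23 and -1.04 ± 0.16, and Mx1 (-0.65) and Mx2 (-0.79). Ifit1 (-0.57), Ifit2 (-0.39), Dhx58 (-0.47), Trim30a (-0.24), Ifi35 (-0.41), Parp9 (-0.20) and Dtx3l (-0.26) complete the 26. Among the genes that did not pass were Parp14 at 0.01 ± 0.05, Samd9l at -0.06 ± 0.07, Ddx58 at -0.05 ± 0.08, Ifih1 at -0.19 ± 0.10, Ifit3 at -0.31 ± 0.20, Bst2 at 0.10 ± 0.06, Ifi44 at -0.73 ± 0.39 and Ifi203 at 0.14 ± 0.09. Mx2 lost its call without control replicate 1 (adjusted p = 0.0555), and Ifit1 and Irf7 lost theirs without control replicate 2 (adjusted p = 0.0513 to 0.105 in edgeR). Counts in exons made up 78.3% ± 2.78 of the library totals in IsoAlloLCA and 82.6% ± 1.37 in control libraries (SD, n = 3 each), and the 5 conventional dendritic cell markers summed to 4.59 to 6.80 CPM in IsoAlloLCA against 1.61 to 2.01 CPM in control libraries. In this list Xcr1 had 2.12, 2.89 and 3.16 CPM in IsoAlloLCA against 1.55, 0.929 and 1.13 CPM in control libraries, and Zbtb46 had 1.93, 2.95 and 1.86 CPM in IsoAlloLCA against 0.217, 0.372 and 0.193 CPM in control libraries. Itgax had at most 0.723 CPM, Flt3 at most 0.26 CPM and Clec9a at most 0.0555 CPM in any library. The 3 natural killer cell markers, mostly Eomes, which activated CD8+ T cells also express, summed to 14.9 to 17.3 CPM in IsoAlloLCA against 26.3 to 27.6 CPM in control libraries, and the B cell markers to 4.08 to 5.08 CPM in IsoAlloLCA against 5.88 to 6.38 CPM in control libraries. The plasmacytoid dendritic cell list, mostly Ptprs, summed to 158 to 193 CPM in IsoAlloLCA against 136 to 157 CPM in control libraries, and Cd4 had 0.781 to 1.16 CPM in IsoAlloLCA against 0.525 to 0.62 CPM in control libraries. The part of these shifts in the result was not tested.

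IsoLCA lowered 12 of the genes and raised 0. Of the 35 genes 0 rose, 12 fell and 23 did not pass, beside 3.73% of all tested genes called higher and 6.12% lower (9.84% either way), with a median log2 fold change of -0.21 against 0.01 over all tested genes. Of the 12, 0 changed more than 2-fold, and 10 had no overlap between groups. Dtx3l, the ligase that pairs with Parp9, had 154, 148 and 139 CPM in the IsoLCA libraries, against 185, 193 and 182 CPM in the control libraries. The IsoLCA libraries were all lower (log2 fold change -0.34 ± 0.04, edgeR adjusted p = 1.39e-06). The related Parp9 (-0.18) and Parp14 (-0.27) fell, so that 3 of 3 genes of this group passed. Samd9l averaged 101 ± 11.7 CPM in IsoLCA and 125 ± 9.25 CPM in control cells (log2 fold change -0.31 ± 0.07, edgeR adjusted p = 0.00226), and Stat2 46.7 ± 4.05 CPM in IsoLCA and 57.9 ± 4.18 CPM in control cells (log2 fold change -0.31 ± 0.07, edgeR adjusted p = 0.0037). Rsad2 (-0.84), Mx1 (-0.57), Ifit1 (-0.55), Dhx58 (-0.35), Isg20 (-0.27), Irf9 (-0.18) and Trim30a (-0.23) fell as well. Isg15 was at -0.27 ± 0.15, with a 95% interval from -0.58 to 0.03, and 0 of the 5 OAS genes passed. The count of called genes was 5 without IsoLCA replicate 3 and 6 without control replicate 2, where Ifit1 was at -0.36 in place of -0.55 on the log2 scale. Dtx3l, Parp14, Samd9l and Stat2 were called in each of the 6 fits that left out a library, and the other 8 lost their call in at least 1, at edgeR adjusted p of 0.0715 to 0.279. T cell markers summed to 3890 to 4070 CPM in IsoLCA against 3530 to 3680 CPM in control libraries. Cd8a and Cd8b1 summed to 1020 to 1070 CPM in IsoLCA against 986 to 1000 CPM in control libraries. B cell markers summed to 5.09 to 5.62 CPM in IsoLCA and 5.28 to 5.73 CPM in DehydroLCA, against 5.88 to 6.38 CPM in control libraries. The part of these shifts in either result was not tested.

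DehydroLCA moved 7 of the genes. Of the 35, 6 rose, 1 fell and 28 did not pass, beside 2.41% of all tested genes called higher and 3.41% lower (5.83% either way), with a median log2 fold change of 0.07 against 0.01 over all tested genes. Oasl2 had 3.72, 3.28 and 3.92 CPM in the DehydroLCA libraries, against 2.20, 2.35 and 1.49 CPM in the control libraries. The DehydroLCA libraries stood above control (log2 fold change 0.87 ± 0.16, edgeR adjusted p = 0.000843). Oasl1 had 2.52, 2.63 and 2.80 CPM in the DehydroLCA libraries, against 1.61, 1.80 and 1.22 CPM in the control libraries, also without overlap (log2 fold change 0.79 ± 0.15, edgeR adjusted p = 0.0018). Oas2, Ifit3, Isg15 and Rtp4 rose, with log2 fold changes of 0.84 ± 0.22, 0.66 ± 0.17, 0.50 ± 0.14 and 0.58 ± 0.17. For Isg15 the libraries overlapped, with 9.10, 9.04 and 7.56 CPM in the DehydroLCA libraries, against 5.79, 7.71 and 4.70 CPM in the control libraries (edgeR adjusted p = 0.0291). Dtx3l fell, with 157, 160.3 and 156 CPM in the DehydroLCA libraries, against 185, 193 and 182 CPM in the control libraries (log2 fold change -0.24 ± 0.04, edgeR adjusted p = 0.00045). Irf7 was at 0.16 ± 0.14 and Stat2 at -0.15 ± 0.07, and neither passed. With 1 of the 6 libraries left out, Rtp4 lost its call in 6 of 6 fits, at log2 fold changes of 0.48 to 0.68, and Ifit3 in 5, at 0.61 to 0.69, while Oas2 and Isg15 each lost theirs in 4, at 0.72 to 0.82 and 0.34 to 0.46. The total was 3 without control replicate 1 or DehydroLCA replicate 1, 4 without DehydroLCA replicate 2 or DehydroLCA replicate 3 and 6 without control replicate 2 or control replicate 3. The adjusted p of the lost calls was 0.0514 to 0.189 in edgeR.

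UDCA lowered 15 of the 35 genes, raised 0, and 20 did not pass, beside 9.18% of all tested genes called higher and 10.7% lower (19.9% either way). The median log2 fold change was -0.20, against 0.01 over all tested genes. Ifit1, which binds viral RNA lacking the host's cap methylation, had 4.41, 4.21 and 3.46 CPM in the UDCA libraries, against 8.49, 12.4 and 8.98 CPM in the control libraries. The UDCA libraries were all below control (log2 fold change -1.30 ± 0.18, edgeR adjusted p = 7.07e-06). Rsad2, whose product viperin makes a chain-terminating nucleotide, had 1.18, 1.48 and 1.01 CPM in the UDCA libraries, against 2.45, 3.90 and 2.57 CPM in the control libraries, also apart (log2 fold change -1.26 ± 0.23, edgeR adjusted p = 0.000273). Dhx58, the sensor LGP2, averaged 10.8 ± 1.18 CPM in UDCA and 15.1 ± 1.08 CPM in control cells (log2 fold change -0.48 ± 0.09, edgeR adjusted p = 0.000642), and Oas3 89.6 ± 4.42 CPM in UDCA and 112 ± 8.67 CPM in control cells (log2 fold change -0.33 ± 0.05, edgeR adjusted p = 3.05e-05). Mx2, Oasl1 and Oasl2 fell, at -1.02 ± 0.28, -0.71 ± 0.19 and -0.68 ± 0.19, and so did Stat2 at -0.28 ± 0.07 and the 3 genes of the PARP group, Dtx3l (-0.24), Parp9 (-0.20) and Parp14 (-0.16). Isg15 fell, with 4.15, 5.26 and 3.32 CPM in the UDCA libraries, against 5.79, 7.71 and 4.70 CPM in the control libraries (log2 fold change -0.50 ± 0.15, edgeR adjusted p = 0.024). Ifih1 (-0.32), Samd9l (-0.20) and Isg20 (-0.38) complete the 15, while Rtp4 at -0.28 ± 0.19 and Xaf1 at -0.16 ± 0.09 did not pass. The count was 9 without control replicate 2, where Oasl1, Oasl2, Parp14, Ifih1, Samd9l and Isg15 lost their calls (adjusted p = 0.0598 to 0.236 in edgeR), with Ifih1 at -0.16 in place of -0.32 and Isg15 at -0.29 in place of -0.50 on the log2 scale. Subsets of these 6 lost their calls also without control replicate 1, or without UDCA replicate 1, 2 or 3, at edgeR adjusted p of 0.0567 to 0.133.

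TCDCA lowered 14 of the 35 genes, raised 1, and 20 did not pass, beside 5.08% of all tested genes called higher and 8.04% lower (13.1% either way). The median log2 fold change was -0.16, against 0.00 over all tested genes. Ifit1 had 3.06, 3.28 and 3.82 CPM in the TCDCA libraries, against 8.49, 12.4 and 8.98 CPM in the control libraries. The TCDCA libraries were all lower, by more than 2-fold on average (log2 fold change -1.55 ± 0.18, edgeR adjusted p = 1.21e-06). Rsad2 had 0.861, 1.29 and 1.06 CPM in the TCDCA libraries, against 2.45, 3.90 and 2.57 CPM in the control libraries, without overlap (log2 fold change -1.47 ± 0.23, edgeR adjusted p = 8.91e-05). Mx2 had 0.327, 0.552 and 0.407 CPM in the TCDCA libraries, against 1.39, 1.30 and 0.911 CPM in the control libraries, also apart (log2 fold change -1.47 ± 0.29, edgeR adjusted p = 0.0012). Isg15 had 3.38, 3.13 and 3.22 CPM in the TCDCA libraries, against 5.79, 7.71 and 4.70 CPM in the control libraries, and its TCDCA libraries lay close together below control (log2 fold change -0.90 ± 0.16, edgeR adjusted p = 0.000381). Oasl1 (-0.89), Oasl2 (-0.68), Ifit3 (-0.79), Dhx58 (-0.59), Irf7 (-0.45), Samd9l (-0.37), Ifi44 (-1.35), Isg20 (-0.27), Parp9 (-0.16) and Ifih1 (-0.49) fell as well. Ifi35 was higher, averaging 58.6 ± 2.35 CPM in TCDCA and 51.7 ± 1.13 CPM in control cells (log2 fold change 0.18 ± 0.05, edgeR adjusted p = 0.0116). Usp18 at 0.07 ± 0.16, Irf9 at -0.01 ± 0.05 and Stat2 at -0.10 ± 0.07 did not pass. The count was 9 without control replicate 2, where Ifi35, Isg20, Oasl2, Parp9, Ifi44 and Irf7 lost their calls (adjusted p = 0.0617 to 0.232 in edgeR). These or Ifit3 lost calls without each of the other 5 libraries as well, at edgeR adjusted p of 0.0512 to 0.223. Cd8a and Cd8b1 summed to 1110 to 1170 CPM in TCDCA and 1100 to 1180 CPM in UDCA libraries, against 986 to 1000 CPM in control libraries. T cell markers summed to 3790 to 3940 CPM in TCDCA and 3770 to 3940 CPM in UDCA libraries, against 3530 to 3680 CPM in control libraries. Natural killer cell markers summed to 32.5 to 34.5 CPM in TCDCA and 31.2 to 36.5 CPM in UDCA libraries, against 26.3 to 27.6 CPM in control libraries. B cell markers summed to 5.04 to 5.58 CPM in TCDCA against 5.88 to 6.38 CPM in control libraries, and the part of these shifts in either result was not tested.

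TCA, at the same dose as TCDCA, moved 0 of the 35 genes past the threshold, beside 0.0843% of all tested genes called higher and 0.353% lower (0.437% either way). At an unadjusted p under 0.05 there were 6, and the share of all tested genes under that threshold was not computed. DESeq2 called 0. The smallest adjusted p was that of Oas2, with 1.35, 1.35 and 1.46 CPM in the TCA libraries, against 0.681, 0.96 and 0.801 CPM in the control libraries. The TCA and control libraries gave a log2 fold change of 0.77 ± 0.22 (edgeR adjusted p = 0.177). Isg15 had 5.78, 6.37 and 5.81 CPM in the TCA libraries, against 5.79, 7.71 and 4.70 CPM in the control libraries, which overlapped, and its difference was -0.01 ± 0.15 with a 95% interval from -0.31 to 0.29. For Ifit1 the interval was from -0.42 to 0.22 and for Irf7 from -0.22 to 0.35. A p above the threshold does not show that TCA left these genes as they were.

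For 6 pairs of acids with equal doses the difference between the acids was tested itself. IsoLCA is the epimer of LCA at the ring hydroxyl, DehydroLCA carries a ketone in its place, UDCA carries an additional hydroxyl, and IsoAlloLCA differs from IsoLCA in the configuration of a ring junction. TCA carries a hydroxyl that TCDCA lacks. With p-values adjusted over all genes and all 6 pairs together, the number of called genes was 29 for IsoLCA against LCA, 32 for IsoAlloLCA against LCA, 19 for IsoAlloLCA against IsoLCA, 27 for DehydroLCA against LCA, 27 for UDCA against LCA and 23 for TCA against TCDCA. The shares of all tested genes called under this joint adjustment were not computed, so these counts have no share to stand beside. The counts that follow are adjusted over the genes of each pair. The pairs with LCA share its 3 libraries.

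IsoLCA against LCA gave 0 genes higher, 29 lower and 6 that did not pass, beside 15.8% of all tested genes called higher and 14.6% lower (30.3% either way). The median log2 fold change was -0.60, 13 genes differed more than 2-fold, and 29 of the 29 called genes had no overlap between libraries. Oasl1 had 1.54, 1.13 and 1.21 CPM in the IsoLCA libraries, against 5.23, 4.90 and 5.02 CPM in the LCA libraries. The epimers stood far apart (log2 fold change -1.97 ± 0.14, edgeR adjusted p = 7.47e-10). Isg15 had 5.80, 4.69 and 4.53 CPM in the IsoLCA libraries, against 16.5, 15.7 and 15.2 CPM in the LCA libraries, likewise apart (log2 fold change -1.66 ± 0.13, edgeR adjusted p = 3.28e-09). Irf7 fell by 1.03 ± 0.13 on the log2 scale, Irf9 by 0.50 ± 0.05 and Stat2 by 0.37 ± 0.07. The 6 that did not pass were Ifit2, Isg20, Bst2, Samd9l, Parp9 and Ifi203, whose 95% intervals lay within -0.38 and 0.21.

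IsoAlloLCA against LCA gave 2 genes higher, 31 lower and 2 that did not pass, beside 32.3% of all tested genes called higher and 29.1% lower (61.4% either way), with a median log2 fold change of -0.88 and 17 called genes beyond 2-fold. Rtp4 had 1.21, 1.36 and 1.27 CPM in the IsoAlloLCA libraries, against 12, 10.5 and 10.9 CPM in the LCA libraries, the largest change of the 35 in this pair (log2 fold change -3.12 ± 0.19, edgeR adjusted p = 4.1e-13). Xaf1 had 6.47, 6.86 and 7.29 CPM in the IsoAlloLCA libraries, against 20.2, 19.2 and 20.7 CPM in the LCA libraries, with the smallest adjusted p (log2 fold change -1.55 ± 0.09, edgeR adjusted p = 9.01e-14). Higher with IsoAlloLCA were Samd9l (0.22) and Ifi203 (0.24). Dtx3l lost its call without IsoAlloLCA replicate 1, IsoAlloLCA replicate 3 or LCA replicate 1, Ifi203 without IsoAlloLCA replicate 2 or LCA replicate 2, and Samd9l without IsoAlloLCA replicate 2 (edgeR adjusted p = 0.0531 to 0.173). IsoAlloLCA against IsoLCA gave 3 genes higher, 17 lower and 15 that did not pass, beside 31.7% of all tested genes called higher and 28.1% lower (59.8% either way), with a median log2 fold change of -0.28. Called either way were 57.1% of the 35, so the total lay near the share of all genes. By direction, 8.57% of the 35 were called higher and 48.6% lower. Isg20 had 10.4, 9.11 and 9.23 CPM in the IsoAlloLCA libraries, against 19.5, 16.2 and 17.6 CPM in the IsoLCA libraries, without overlap (log2 fold change -0.89 ± 0.09, edgeR adjusted p = 1.37e-08). Usp18 was at -1.20 ± 0.18, Rtp4 at -1.5 ± 0.22, Eif2ak2 at -0.39 ± 0.05 and Ifi35 at -0.43 ± 0.05, all called lower, and Parp14 (0.28), Samd9l (0.25) and Ifi203 (0.22) were higher. Irf9 was at -0.01 ± 0.06, with a 95% interval from -0.12 to 0.10, and Ifit1 at -0.03 ± 0.17, with an interval from -0.37 to 0.32. Ifit2, Ifit3, Ifi203 and Isg15 lost their calls without at least 1 of IsoAlloLCA replicates 2 and 3 and IsoLCA replicates 1, 2 and 3 (edgeR adjusted p = 0.0516 to 0.262). On the log2 scale Ifi203 was at 0.15 without IsoAlloLCA replicate 2, 0.36 without IsoLCA replicate 2 and 0.13 without IsoLCA replicate 3, in place of 0.22, and Samd9l, still called, at 0.16 without IsoLCA replicate 3 in place of 0.25.

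DehydroLCA against LCA gave 0 genes higher, 27 lower and 8 that did not pass, beside 10.3% of all tested genes called higher and 7.49% lower (17.8% either way), with a median log2 fold change of -0.36. Parp14 had 138, 136 and 137 CPM in the DehydroLCA libraries, against 172, 178 and 175 CPM in the LCA libraries. The difference was small but without overlap (log2 fold change -0.36 ± 0.05, edgeR adjusted p = 6.17e-06). Isg15 had 9.10, 9.04 and 7.56 CPM in the DehydroLCA libraries, against 16.5, 15.7 and 15.2 CPM in the LCA libraries, apart as well (log2 fold change -0.88 ± 0.12, edgeR adjusted p = 2.02e-05), and Oasl1 was at -0.93 ± 0.13 and Rtp4 at -0.99 ± 0.15. Isg20 was at -0.05 ± 0.08, with a 95% interval from -0.22 to 0.13, and Cmpk2 at -0.24 ± 0.14, with an interval from -0.52 to 0.04. Ifi35, Ifit1, Ifit3, Oas1a, Oas2, Stat2 and Zbp1 each lost a call without at least 1 library of the 2 groups (edgeR adjusted p = 0.0523 to 0.159). UDCA against LCA gave 0 genes higher, 27 lower and 8 that did not pass, beside 14.8% of all tested genes called higher and 12% lower (26.9% either way), with a median log2 fold change of -0.70 and 12 called genes beyond 2-fold. Oasl1 had 1.05, 0.756 and 1.01 CPM in the UDCA libraries, against 5.23, 4.90 and 5.02 CPM in the LCA libraries, the groups far apart (log2 fold change -2.43 ± 0.15, edgeR adjusted p = 2.37e-11). Oas3 averaged 89.6 ± 4.42 CPM in UDCA and 146 ± 5.03 CPM in LCA cells (log2 fold change -0.70 ± 0.05, edgeR adjusted p = 1.27e-10). Ifit2 was at 0.03 ± 0.09, with a 95% interval from -0.15 to 0.21, and Isg20 lost its call without LCA replicate 1, at -0.20 in place of -0.31 (edgeR adjusted p = 0.0881).

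TCA against TCDCA gave 16 genes higher, 0 lower and 19 that did not pass, beside 2.65% of all tested genes called higher and 0.958% lower (3.61% either way), with a median log2 fold change of 0.28. The 16 called genes had no overlap between libraries, and 7 differed more than 2-fold. Ifit1 had 10, 11.4 and 6.42 CPM in the TCA libraries, against 3.06, 3.28 and 3.82 CPM in the TCDCA libraries. All TCA libraries lay above all TCDCA libraries (log2 fold change 1.46 ± 0.18, edgeR adjusted p = 4.14e-05, 95% interval from 1.08 to 1.83). Oasl1 had 2.12, 2.20 and 1.91 CPM in the TCA libraries, against 0.861, 0.797 and 0.813 CPM in the TCDCA libraries, also apart (log2 fold change 1.33 ± 0.18, edgeR adjusted p = 9.57e-05). Oasl2, Rsad2, Ifit3, Isg15 and Irf7 were higher with TCA by 1.22 ± 0.18, 1.43 ± 0.23, 1.18 ± 0.20, 0.88 ± 0.16 and 0.52 ± 0.14 on the log2 scale. Usp18 was at 0.05 ± 0.16, with a 95% interval from -0.27 to 0.37, and Irf9 at 0.08 ± 0.05, with an interval from -0.03 to 0.19. The count was 9 without TCA replicate 2, where Mx2, Herc6, Parp14, Parp9, Oas3, Ifih1 and Irf7 lost their calls (edgeR adjusted p = 0.0557 to 0.211), and some of these 7 lost theirs without each of the other 5 libraries.

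**Figure D4:**
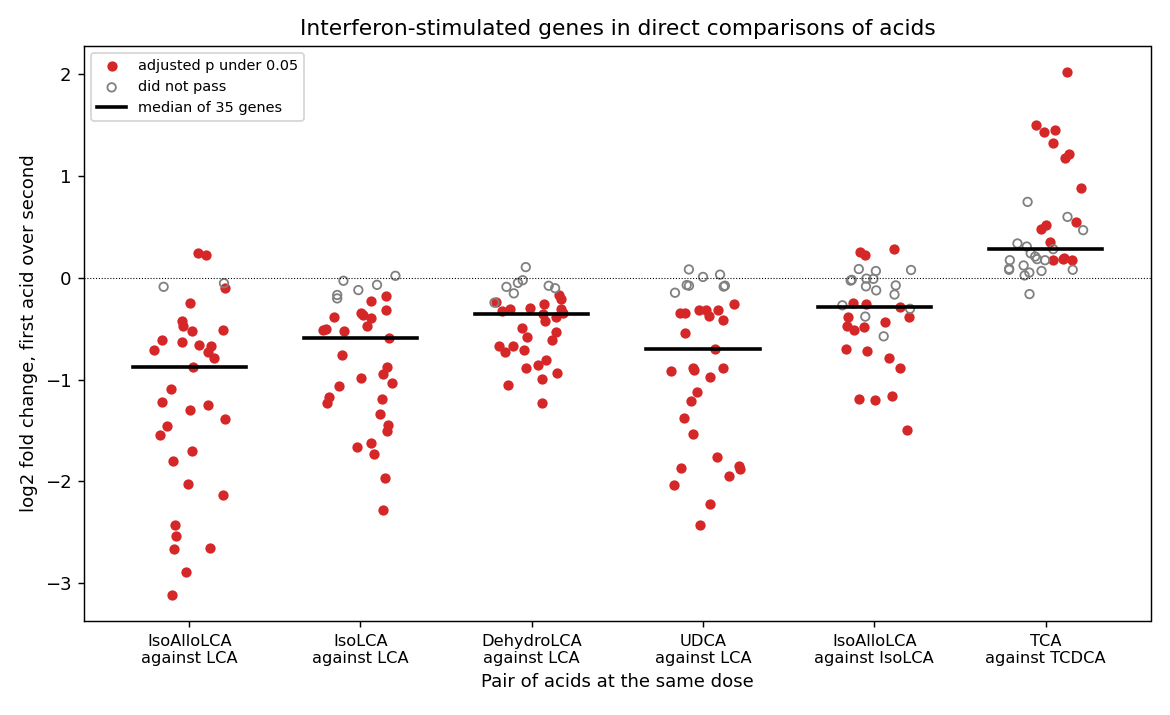
Log2 fold change (vertical) of the 35 genes in the 6 pairs of acids with equal doses, the first named acid over the second, with filled points for an edgeR adjusted p under 0.05 and a bar at the median. Values below 0 prevail in the pairs with LCA, where 27 to 33 of 35 genes were called, and values above 0 in TCA against TCDCA, where 16 were called higher.

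The genes that carry the signal were called in both directions with most of the acids. Of 25 tested receptor and signalling genes, 9 rose and 6 fell with IsoAlloLCA, 2 and 6 with IsoLCA, 1 and 3 with DehydroLCA, 6 and 4 with UDCA, 6 and 7 with LCA, 0 and 0 with TCA, and 3 and 1 with TCDCA. Called either way were 60% of the list with IsoAlloLCA (58.4% of all tested genes), 32% with IsoLCA (9.84%), 16% with DehydroLCA (5.83%), 40% with UDCA (19.9%), 52% with LCA (36.5%), 0% with TCA (0.437%) and 16% with TCDCA (13.1%), so with IsoAlloLCA and TCDCA the share lay near that of all genes. With IsoAlloLCA the receptor chain Ifnar1 had 141, 164 and 143 CPM, against 97.2, 91.7 and 91.4 CPM in the control libraries. The 3 IsoAlloLCA libraries lay above the control libraries (log2 fold change 0.68 ± 0.06, edgeR adjusted p = 6.47e-10). The kinase gene Tyk2 averaged 103 ± 6.17 CPM in IsoAlloLCA and 80.5 ± 3.26 CPM in control cells (log2 fold change 0.36 ± 0.05, edgeR adjusted p = 6.15e-07). Irf8, a factor of immune cell differentiation, fell to 47.9 ± 7.09 CPM in IsoAlloLCA, against 123 ± 3.20 CPM in control cells (log2 fold change -1.36 ± 0.07, edgeR adjusted p = 3.1e-14), and Ikbke, a kinase upstream of interferon factors, was higher (log2 fold change 1.07 ± 0.10, edgeR adjusted p = 1.4e-09). With LCA, Ifnar2 rose (log2 fold change 0.26 ± 0.05, edgeR adjusted p = 0.000488), and the interferon gamma receptor chain Ifngr1 averaged 145 ± 3.78 CPM in LCA and 239.6 ± 6.06 CPM in control cells (log2 fold change -0.73 ± 0.06, edgeR adjusted p = 7.93e-10). The 6 called higher with LCA also held Mb21d1, the cytosolic DNA sensor cGAS, at 0.30 ± 0.05, Trex1, a nuclease that removes cytosolic DNA, at 0.41 ± 0.07, and the endosomal RNA receptor Tlr7 at 1.03 ± 0.17. The 7 called lower held Tmem173, the adaptor STING, at -0.17 ± 0.03, Ticam1, the adaptor TRIF of Toll-like receptors, at -0.18 ± 0.06, and Jak1 at -0.13 ± 0.04. Some of these changes were also called with other acids. Ifnar2 rose with UDCA (0.39 ± 0.05) and TCDCA (0.22 ± 0.05), and Mb21d1 with UDCA (0.23 ± 0.05). Ifngr1 fell with IsoLCA (-0.70 ± 0.06) and DehydroLCA (-0.46 ± 0.06), and Tmem173 with TCDCA (-0.14 ± 0.03). In IsoAlloLCA, Ifngr1 averaged 361 ± 26.2 CPM, above the control mean. Ifng averaged 7.53 ± 0.609 CPM in UDCA and 4.43 ± 0.974 CPM in control cells (log2 fold change 0.77 ± 0.16, edgeR adjusted p = 0.00152), and fell with IsoLCA (-0.77 ± 0.19) and DehydroLCA (-0.84 ± 0.19).

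**Figure D5:**
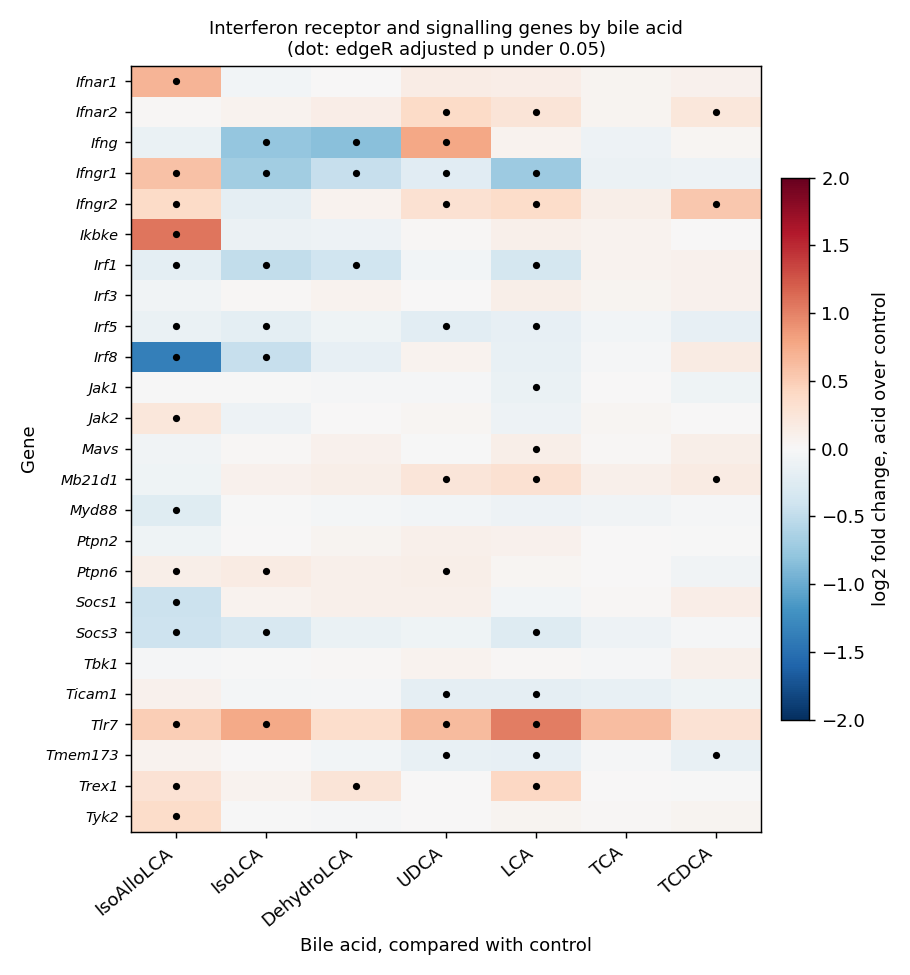
Log2 fold change of 25 interferon receptor and signalling genes (rows) in the 7 acids against control (columns), with a dot at an edgeR adjusted p under 0.05. Irf8 at -1.36 and Ikbke at 1.07, both with IsoAlloLCA, are the extremes.

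Further interferon-stimulated genes outside the 35 were counted from a list of 55 tested genes, many of which respond to interferon gamma as well. With LCA 22 of the 55 rose and 15 fell, with IsoAlloLCA 8 rose and 27 fell, with UDCA 3 rose and 11 fell, with IsoLCA 0 rose and 13 fell, with DehydroLCA 1 rose and 10 fell, with TCDCA 1 rose and 10 fell, and with TCA 0 were called. Called either way were 67.3% of the 55 with LCA (36.5% of all tested genes), 63.6% with IsoAlloLCA (58.4%), 25.5% with UDCA (19.9%), 23.6% with IsoLCA (9.84%), 20% with DehydroLCA (5.83%), 20% with TCDCA (13.1%) and 0% with TCA (0.437%), so with IsoAlloLCA and UDCA the share lay near that of all genes. By direction, 14.5% of the 55 were called higher and 49.1% lower with IsoAlloLCA, beside 30.6% and 27.8% of all tested genes. With UDCA 5.45% were called higher and 20% lower, beside 9.18% and 10.7% of all tested genes. Ifi27 averaged 78.1 ± 4.66 CPM in LCA and 45.5 ± 2.79 CPM in control cells (log2 fold change 0.78 ± 0.06, edgeR adjusted p = 6.83e-10). Against that, Iigp1, a GTPase induced by interferon gamma, averaged 72.6 ± 5.83 CPM in LCA and 117 ± 3.46 CPM in control cells (log2 fold change -0.68 ± 0.06, edgeR adjusted p = 3.19e-09), and 37.1 ± 4.14 CPM in IsoAlloLCA (log2 fold change -1.66 ± 0.06, edgeR adjusted p = 1.7e-16). Iigp1 was also called lower with IsoLCA (-0.94 ± 0.06) and DehydroLCA (-0.88 ± 0.06). Igtp and Gbp6, further GTPases of this kind, were lower with IsoAlloLCA, at -0.59 ± 0.05 and -0.62 ± 0.05. Slfn1 averaged 32.8 ± 3.87 CPM in UDCA and 47.9 ± 0.301 CPM in control cells (log2 fold change -0.54 ± 0.07, edgeR adjusted p = 1.66e-06). Ifit3b, a near copy of Ifit3 whose reads cannot be separated from it with certainty, was at -1.67 ± 0.35 with UDCA, on 0.234 ± 0.112 CPM in UDCA and 0.768 ± 0.142 CPM in control cells.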

How the data were processed

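The deposited values are the authors' expected counts per gene in 1 table: HOMER summed reads over exons (mm10, raw), per the file headers. The aligner STAR, DESeq2 and the build GRCm38 appear in the submitters' processing notes, without versions, and no source used here gives the strand option. Values come in steps of 0.5 (29.43% are not whole) and were rounded to whole numbers, upward from 0.5. The design had assumed whole counts, and the same test was used.

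Groups came from the sample titles. In R 4.3.3, edgeR 4.0.16 fitted all 24 libraries (TMM scaling, filterByExpr, quasi-likelihood test, no block), with Benjamini-Hochberg adjustment over 13044 genes per comparison and calls under 0.05. Errors of fold changes are standard errors and intervals are 95%. CPM are TMM-scaled, and levels are compared between genes per kb of transcript. The test was tried on simulated data. The members and lists were chosen with earlier results of these data known. Any member could be named by its role; library values were given for up to 5 called members per comparison, ranked by adjusted p, for Isg15, Irf7, Irf9 and Stat2, and for some further members chosen after their values were seen, such as Rtp4, Mx2 and Ifi44. Near-identical copies (Ifit3 and Ifit3b, Oas1a and its paralogs, Oasl1 and Oasl2, Mx1 and Mx2, and the families of Ifi203 and Trim30a) may share reads, so their values are uncertain. Alternatives used DESeq2 1.42.0, its size factors in edgeR, no filter, a replicate block, only the 6 libraries compared, leaving out each library, a 1.5-fold minimum and, chosen after seeing the data, rounding 0.5 down. A gene of the signalling list is not reported here.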

Additional observations from a re-analysis of the deposited data

How the results depend on the processing

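Among the called genes, 0 changed sign in any of the 156 combinations of a comparison and an alternative. DESeq2, its size factors in edgeR, no filter and rounding down kept every count of called genes within 1.5 times, as did the fit to only the 6 libraries compared, which gave 8 with IsoLCA, 10 with DehydroLCA and 22 in TCA against TCDCA. A minimum change of 1.5-fold, which removes small changes by construction, is given with the share of all tested genes past it. It left 14 called genes (40% of the 35) with IsoAlloLCA, beside 13.9% of all tested genes, 1 (2.86%) with IsoLCA beside 1.87%, 4 (11.4%) with DehydroLCA beside 0.828%, 5 (14.3%) with UDCA beside 2.78%, 16 (45.7%) with LCA beside 5.83% and 9 (25.7%) with TCDCA beside 2.08%, each against control. With TCA against control it left 0, beside 0.0767%. Between acids it left 25 (71.4%) in IsoAlloLCA against LCA beside 16.3%, 18 (51.4%) in IsoLCA against LCA beside 3.56% and 8 (22.9%) in IsoAlloLCA against IsoLCA beside 14%. It left 12 (34.3%) in DehydroLCA against LCA beside 1.86%, 18 (51.4%) in UDCA against LCA beside 3.1% and 8 (22.9%) in TCA against TCDCA beside 0.652%. Leaving out 1 library at a time gave 5 to 13 with IsoLCA, 3 to 6 with DehydroLCA, 9 to 18 with UDCA and 9 to 16 with TCDCA against control, and 9 to 18 in TCA against TCDCA. Except for the 1.5-fold minimum, the shares of all tested genes called under the alternatives are not given here. Those counts show only how far the choice of setting moves them.

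The labels do not say whether the replicate numbers pair the samples, and correlations between libraries cannot settle it. In 0 of the comparisons did every same-numbered pair of libraries correlate above 0.1 in its deviations from the group means. These correlations were 0.517, 0.427 and 0.0955 in IsoAlloLCA against IsoLCA, 0.427, 0.301 and 0.0714 in IsoAlloLCA against LCA and 0.379, 0.225 and 0.0896 in IsoLCA against LCA, and each library of these pairs correlated best with its own number, a hint from the data and not from the design. With the replicate number as a block, counts against control were 26 with IsoAlloLCA, 13 with IsoLCA, 9 with DehydroLCA, 15 with UDCA, 29 with LCA, 0 with TCA and 16 with TCDCA, and between acids 34 in IsoAlloLCA against LCA, 22 in IsoAlloLCA against IsoLCA, 30 in IsoLCA against LCA, 27 in DehydroLCA against LCA, 27 in UDCA against LCA and 23 in TCA against TCDCA, each within 1.5 times of the count without it. The shares of all tested genes called with the block are not given here either. Depth limits the scarce genes most, such as Ifi44 and Oas2.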
